A study of Saccharomyces cerevisiae with 6 samples.

Results

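The large subunit of the cytosolic ribosome joins amino acids into protein, and its protein components are encoded in yeast by single-copy genes and by pairs of paralogues named A and B. The genes described here are those whose symbol in the array's annotation reads RPL with a number and an optional A or B, or RPP0, RPP1A, RPP1B, RPP2A or RPP2B, the stalk proteins. The RNase P subunit RPP1 was left out. This gave 71 of 5365 named genes, read by 72 features, RPL30 by 2. Messenger RNA of Saccharomyces cerevisiae strain S288C, the strain of the reference genome, was compared on 2-colour arrays. The treated cells had been exposed for 2 h to 3.3 mM tetrachloroethylene, a chlorinated solvent, and carried Cy5. The untreated cells were taken from the exponential culture (YPD medium, 25 °C) before the solvent was added, and carried Cy3. There were 3 independent biological samples with 1 array each, and every array was read by a high power and a low power laser scan. Dyes were not swapped and no untreated culture at 2 h is among these samples, so the solvent, the dye and the elapsed time cannot be told apart. Each value is a log2 ratio of treated over untreated cells. The base and direction of the ratio are not stated in the labels and were taken from the dye labels and the usual convention, so every sign below rests on that reading. A lower ratio is a lower share of the labelled messenger RNA, and a change in cell number or in RNA per cell cannot be told apart from it.

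As background, ribosomal protein genes are among the most strongly transcribed genes of growing yeast. Their promoters are bound by Rap1 and by Fhl1 with its partner Ifh1, under the control of the TOR and protein kinase A pathways, and their transcripts are known to fall in many kinds of stress. The proteins are imported into the nucleus, many with a dedicated carrier, and are built onto ribosomal RNA in the nucleolus. Most pairs date from the ancient duplication of the yeast genome, and their copies encode identical or nearly identical proteins.

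Transcripts of the large subunit were mostly lower in treated cells. The median log2 ratio over the 70 genes with a value in all 3 hybridisations was -0.45 in hybridisation 1, -0.59 in hybridisation 2 and -0.54 in hybridisation 3, giving -0.53 ± 0.07 (SD, n = 3). Over all 5349 genes tested the medians of the same hybridisations were -0.08, -0.02 and -0.01. Of the 70 genes, 19 fell, 0 rose and 51 did not pass an adjusted p of 0.05 (limma, Benjamini-Hochberg over all genes tested). At an unadjusted p under 0.05, 32 were lower and 0 higher, beside 1119 lower and 945 higher of all 5349 genes. At the adjusted p, 11.9% of all genes were called lower and 9.14% higher, against 27.1% lower among the 70. RPL21A, a gene of the L21 pair, had no value in hybridisation 1 and was not tested. Its ratios were -0.63 and 0.42 in hybridisations 2 and 3.

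The 3 hybridisations agreed in the middle of the group but not gene by gene. In hybridisation 3, 69 of the 70 genes were below 0, and RPL19A, at 0.01, was the exception. In hybridisation 2 the count was 57 and in hybridisation 1 it was 45. Of all 5349 genes, 2701, 2747 and 2891 were below 0 in hybridisations 3, 2 and 1. Of the 70 genes, 39 were below 0 in every hybridisation (55.7%, against 31.3% of all genes), 23 in a pair of hybridisations, and 8 in a single hybridisation. None of the 70 was above 0 in all 3, against 27.5% of all genes. The spread between the genes, as an SD over genes, was 0.95 in hybridisation 1, 0.52 in hybridisation 2 and 0.31 in hybridisation 3, where over all genes tested it was 0.90, 0.65 and 0.67. Over the 70 genes Pearson's r was 0.16 between hybridisations 1 and 2, 0.17 between 1 and 3, and 0.45 between 2 and 3. Each was lower than over all 5349 genes (0.56, 0.56 and 0.84). Over the 51 small-subunit genes r was 0.37, 0.59 and 0.47 in the same order. These correlations are across genes read on the same arrays and are a description. A group of 17 genes was above 0 in hybridisation 1 and below 0 in both others.

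**Figure D1:**
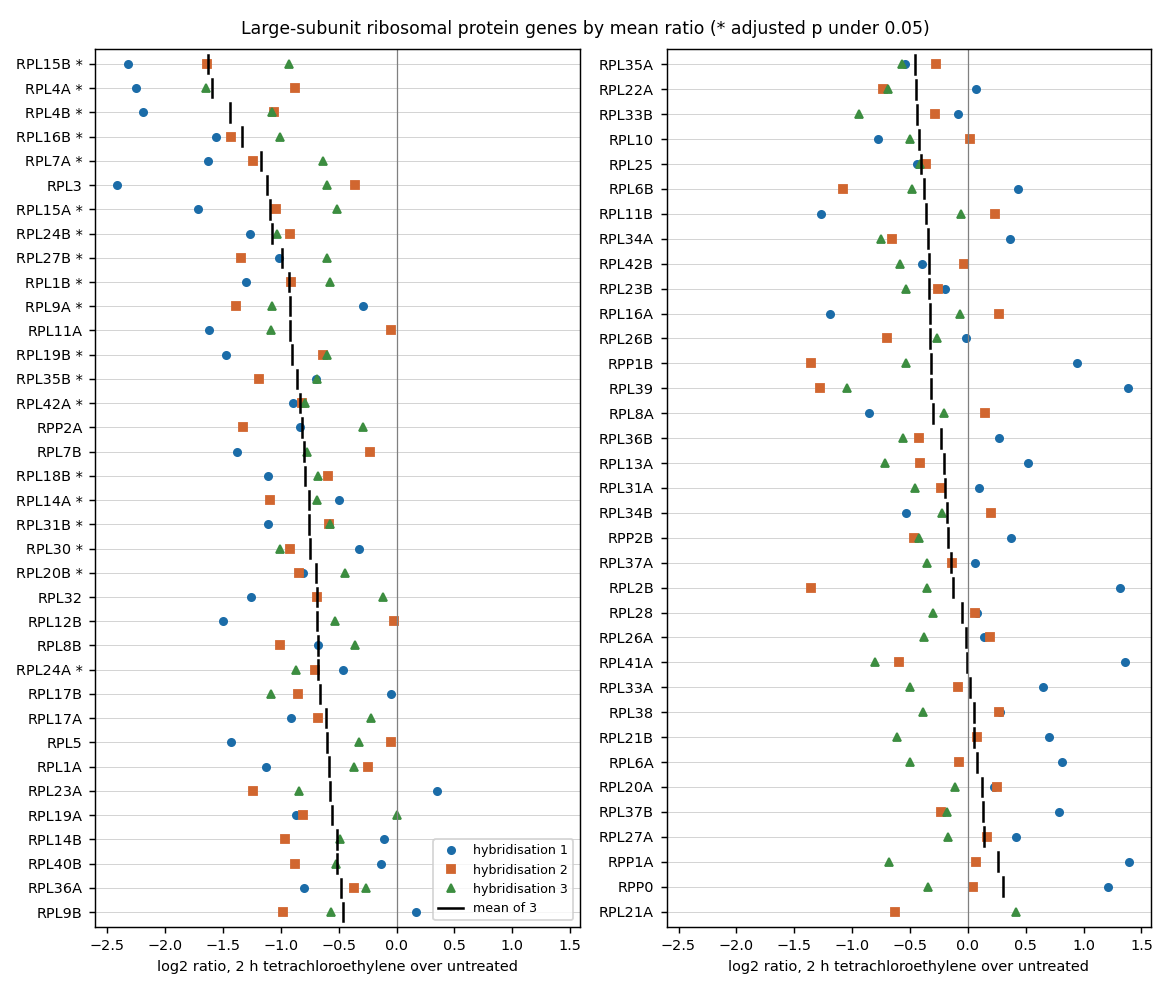
Log2 ratio of treated over untreated cells for each large-subunit gene, ordered by its mean, with a point for each of the 3 hybridisations, a bar for the mean, and a star for an adjusted p under 0.05. RPL15B, RPL4A and RPL4B have the lowest means, hybridisation 1 (circles) holds most of the values farthest from 0 on both sides, and RPL21A has 2 values and no mean.

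**Figure D2:**
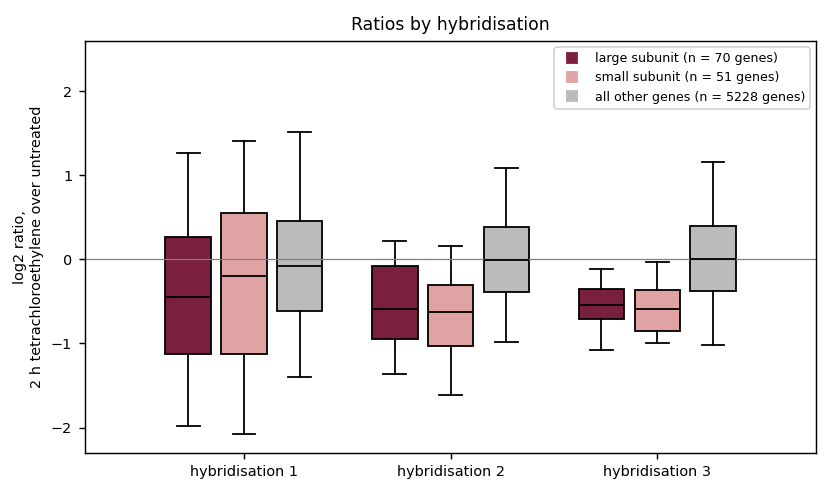
Box plots of the log2 ratio (line at the median, box from the lower to the upper quartile, whiskers from the 5th to the 95th percentile over genes) for 70 large-subunit genes, 51 small-subunit genes and the 5228 other genes, by hybridisation. The large-subunit medians lie at -0.45, -0.59 and -0.54, and the box is narrowest in hybridisation 3.

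Calls depended on single arrays. Without hybridisation 1, 42 of the 70 genes fell, with all 19 among them, where 22.4% of all genes were called lower. Without hybridisation 2, 12 fell, 8 of them among the 19, where 7.35% of all genes were called lower. Without hybridisation 3, 0 fell by limma, where 0% of all genes were called lower. At an unadjusted p under 0.05, 22 of the 70 were then lower. All genes were not counted at that unadjusted p, so the 22 have no background beside them. Against a minimum fold of 1.2, 6 fell, namely RPL15B, RPL16B, RPL24B, RPL4A, RPL4B and RPL7A, where 5.31% of all genes were called lower. After centring of blocks of consecutive feature IDs 13 fell, 11 of them among the 19, where 10.9% of all genes were called lower. RPL9A, RPL14A, RPL15A, RPL20B, RPL24A, RPL30, RPL31B and RPL42A then lost their calls. Besides RPL30, the calls of RPL9A and RPL24A were lost after centring on each hybridisation's median, and those of RPL14A, RPL20B, RPL24A and RPL31B with the low power scan alone.

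The scans behind the values differed from gene to gene. A low power value was present for 70, 71 and 70 of the 71 genes in hybridisations 1, 2 and 3, and a high power value for 56, 6 and 23. Among all 6912 features a high power value was present for 6088, 5368 and 5597. In hybridisations 2 and 3 the large-subunit ratios therefore rest mostly on the low power scan. In hybridisation 1 the 14 tested genes with no high power value had a median of -1.29 (range -2.41 to 1.31, 13 below 0), and the 56 with such a value had a median of -0.12 (range -2.32 to 1.39, 32 below 0). The same 14 genes had medians of -0.62 and -0.51 in hybridisations 2 and 3, and the 56 had medians of -0.59 and -0.56. Among genes outside the group, 33 had no high power value in hybridisation 1, with a median of -0.54, and 5246 had one, with a median of -0.07. In hybridisation 2 the medians outside the group were -0.22 without such a value (649 genes) and 0.003 with it (4630 genes). In hybridisation 3 the order turned, with 0.30 without it (451 genes) and -0.02 with it (4828 genes). In the 56 large-subunit genes read by both scans of hybridisation 1, the high power ratio minus the low power ratio had a median of -0.16 and was below 0 in 46. Over the 3640 features read by both scans the median was 0.00325. In hybridisation 2 the median of this difference was -0.25, below 0 in 6 of 6 large-subunit genes, and in hybridisation 3 it was 0.12, below 0 in 9 of 22. The part of the scan in these ratios was not tested. With the low power scan alone 18 genes fell, 14 of them among the 19, where 12.1% of the 3444 genes tested were called lower.

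**Figure D3:**
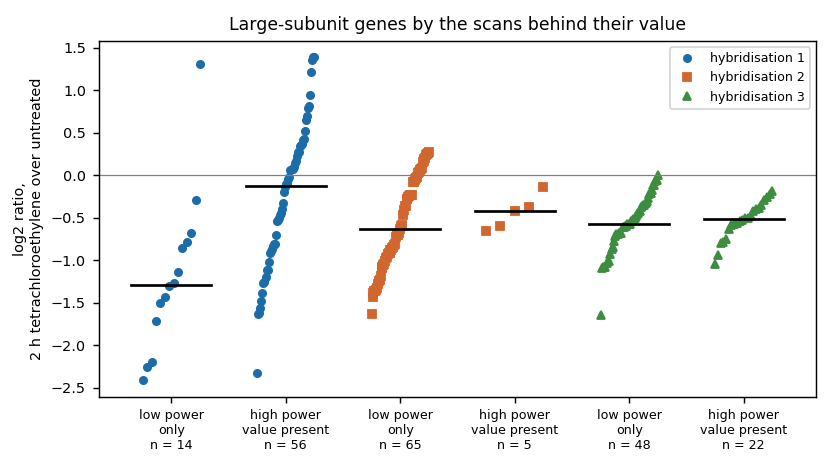
Log2 ratio of treated over untreated cells for the 70 large-subunit genes in each hybridisation, split by whether the value rests on the low power scan only or a high power value was present, with a bar at each median. In hybridisation 1 the medians are -1.29 and -0.12, and in hybridisation 3 they are -0.57 and -0.51.

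The lowest mean was that of RPL15B, which encodes a copy of L15, a protein embedded in the ribosomal RNA of the subunit. RPL15B had log2 ratios of -2.32, -1.64 and -0.93 in hybridisations 1, 2 and 3. All 3 were below 0, and the mean of -1.63 ± 0.70 (SD, n = 3) is a 3.09-fold lower level (adjusted p = 0.0137). Its partner RPL15A followed with -1.72, -1.04 and -0.51, again lowest in hybridisation 1, and fell 2.13-fold (adjusted p = 0.0296).

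L4, whose long loop lines the tunnel through which the new protein leaves, was another protein of which both copies fell. RPL4A had -2.25, -0.88 and -1.65 (mean -1.59 ± 0.69, 3.01-fold lower, adjusted p = 0.0141). RPL4B had -2.19, -1.06 and -1.07 (mean -1.44 ± 0.65, 2.72-fold lower, adjusted p = 0.0165). Neither copy had a high power value in any hybridisation.

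RPL16B, a gene for L16, had the closest agreement among the 5 lowest means, with -1.56, -1.43 and -1.01 in the 3 hybridisations. It fell 2.52-fold (mean -1.33 ± 0.29, adjusted p = 0.0111). RPL7A, for L7, had -1.63, -1.24 and -0.64 and fell 2.25-fold (adjusted p = 0.0198). RPL24B encodes L24, which forms a contact with the small subunit, and had -1.27, -0.92 and -1.03. The values of RPL24B lay close together, and it fell 2.11-fold (mean -1.07 ± 0.18, adjusted p = 0.0135).

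RPL27B, for L27, had -1.02, -1.35 and -0.60 and a mean of -0.99 ± 0.37 (adjusted p = 0.0217). RPL1B encodes L1, which forms a mobile stalk beside the exit of the spent transfer RNA. It had -1.30, -0.92 and -0.58 and a mean of -0.93 ± 0.36 (adjusted p = 0.0258). Both were below 0 in every hybridisation, with RPL27B lowest in hybridisation 2 and RPL1B in hybridisation 1.

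The other genes that fell were RPL9A, RPL19B, RPL35B, RPL42A, RPL18B, RPL14A, RPL31B, RPL30, RPL20B and RPL24A, with means between -0.92 and -0.68. Folds of the 19 ran from 1.60 to 3.09, of which 7 were above 2, and adjusted p-values from 0.0111 to 0.0481. All 19 were below 0 in each hybridisation. RPL42A, for a protein near the exit site of transfer RNA, was the most even of the 19, with -0.89, -0.82 and -0.79 (SD 0.05, adjusted p = 0.0215). A further 20 genes were below 0 in each hybridisation and did not pass.

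The 5 highest means were those of RPP0, RPP1A, RPL27A, RPL37B and RPL20A, and none of them passed. RPP0, the base of the stalk, had 1.21, 0.04 and -0.34 in the 3 hybridisations. RPP1A, a stalk protein, had 1.39, 0.07 and -0.68. In both genes a high value in hybridisation 1 stood against a value near or below 0 in the others, and the 95% intervals of the mean were -0.43 to 1.04 and -0.62 to 1.15.

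RPL37B was likewise high in hybridisation 1 alone, with 0.79, -0.23 and -0.18. RPL27A had 0.41, 0.17 and -0.17 and RPL20A had 0.23, 0.25 and -0.11, both with a value below 0 in hybridisation 3. Their means were 0.13 ± 0.58, 0.14 ± 0.29 and 0.12 ± 0.20, so that each SD was larger than the mean.

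There were 10 tested genes whose names carry no A or B. They had medians of -0.38, -0.20 and -0.40 in hybridisations 1, 2 and 3, and the 60 genes with A or B in their names had -0.48, -0.64 and -0.56. Of the 10, RPL30 fell (10%) and 9 did not pass. Of the 60, 18 fell (30%), where 11.9% of all genes were called lower. The difference between these groups was not tested.

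RPL30 encodes L30, which is known to bind its own transcript and block its splicing. It had -0.32, -0.92 and -1.004 (mean -0.75 ± 0.37, adjusted p = 0.0481). Its 2 features carried the same values in every column and stand for a single measurement. The call was lost without hybridisation 2 or 3, after centring on each hybridisation's median, with the low power scan alone, with scans within 0.5 of each other, after centring of feature blocks, and against a minimum fold of 1.2.

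RPL3 encodes L3, which reaches towards the catalytic centre. It had -2.41, -0.36 and -0.60, where the value of hybridisation 1 was far below the others. RPL3 had no high power value in any hybridisation. The mean was -1.12 ± 1.12 (2.18-fold lower, adjusted p = 0.0834), so a mean that was lower than those of 14 genes that fell did not pass. RPL5 encodes the protein that binds the small ribosomal RNA of the central protuberance. It showed the same order with -1.43, -0.05 and -0.33 (mean -0.60 ± 0.73, adjusted p = 0.170).

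RPL32 had -1.25, -0.69 and -0.12 (mean -0.69 ± 0.57, adjusted p = 0.0911), all below 0. RPL10 encodes L10, which is added to the subunit late, in the cytoplasm, next to the transfer RNA sites. It had -0.78, 0.02 and -0.50 (mean -0.42 ± 0.41, adjusted p = 0.200). RPL10 was near 0 in hybridisation 2 and below it in the others.

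RPL25 encodes the protein at the tunnel exit to which factors that receive new proteins bind. With -0.44, -0.36 and -0.42 it was the most even of all 70 genes (mean -0.41 ± 0.04), yet its adjusted p was 0.139 and its 95% interval -0.82 to 0.01. The value of hybridisation 3 averages scans that lay apart, -0.07 at high and -0.76 at low power, so this evenness is that of the averaged values, and RPL25 was left out where scans had to lie within 0.5 of each other. After centring of feature blocks RPL25 was at -0.63 and passed (adjusted p = 0.0491).

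RPL28, known for mutations that give resistance to cycloheximide, had 0.08, 0.06 and -0.30. RPL38 had 0.28, 0.27 and -0.39. Both lay above 0 in hybridisations 1 and 2 and below it in hybridisation 3, with 95% intervals of -0.50 to 0.39 and -0.45 to 0.56.

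RPL39, for a very small protein of the exit tunnel, had the widest spread of the 70 genes, with 1.39, -1.28 and -1.05 (mean -0.31 ± 1.48, adjusted p = 0.671). It was high in hybridisation 1, where RPP1A alone of the 70 was higher, and low in both others. In hybridisation 1 both scans gave nearly the same value, 1.38 at high and 1.39 at low power. RPL41A, for another very small protein, had 1.36, -0.59 and -0.80, and RPL2B, for a protein of the catalytic centre, had 1.31, -1.36 and -0.35. Together with RPP0 and RPP1A these were the 5 genes above 1 in hybridisation 1.

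Genes were also grouped by the protein's place in the subunit. The list named catalytic core and transfer RNA sites also held L4, which lines the tunnel. Of its 5 measured genes 2 fell, where 11.9% of all genes and 27.1% of the 70 were called lower. Both were L4 genes, RPL4A and RPL4B, while RPL2B, RPL3 and RPL10 did not pass. The list had medians of -2.19, -0.88 and -0.60 in hybridisations 1, 2 and 3, of which -2.19 is the value of RPL4B. Of 6 measured genes for contacts with the small subunit, 4 fell, namely RPL19B, RPL24A, RPL24B and RPL30, and the medians were -0.66, -0.76 and -0.83. RPL19A (-0.87, -0.81 and 0.01) and RPL41A were the 2 that did not pass.

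Around the tunnel exit, 3 of 15 measured genes fell, RPL19B, RPL31B and RPL35B, where 11.9% of all genes were called lower, with medians of -0.05, -0.63 and -0.46. RPL19 genes stand in both this group and the contacts with the small subunit. RPL22A, RPL17A, RPL17B, RPL26A, RPL26B, RPL31A, RPL35A, RPL37A, RPL37B, RPL25, RPL19A and RPL39 did not pass. RPL40B, which makes a ribosomal protein fused to ubiquitin, had -0.14, -0.88 and -0.52 and did not pass (adjusted p = 0.123).

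Proteins that bind the small ribosomal RNA of the central protuberance are made from RPL5, RPL11A and RPL11B, and none of these genes passed. RPL11A had -1.62, -0.05 and -1.08 (adjusted p = 0.0741) and RPL11B had -1.27, 0.24 and -0.06 (adjusted p = 0.416). The 3 genes lay between -1.62 and -1.27 in hybridisation 1 and between -0.05 and 0.24 in hybridisation 2. Over the 70 genes the SD was 0.95 in hybridisation 1 and 0.52 in hybridisation 2. How many other genes showed such a gap was not counted.

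The stalk recruits the factors that drive each step of translation. It consists of P0, copies of P1 and P2, and L12 at its base. Of its 6 measured genes 0 fell or rose by limma, with RPP2A lower at an unadjusted p under 0.05 and medians of 0.66, -0.25 and -0.48 in hybridisations 1, 2 and 3.

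RPP1B had 0.95, -1.36 and -0.54, and RPP2B had 0.37, -0.47 and -0.43. Both followed RPP0 and RPP1A in being above 0 in hybridisation 1 and below 0 in hybridisation 3. RPP2A differed from them with -0.84, -1.33 and -0.29 (mean -0.82 ± 0.52, adjusted p = 0.0524).

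RPL12B had -1.50, -0.03 and -0.53 (adjusted p = 0.134), low in hybridisation 1 where 4 of the P genes were high. In hybridisation 3 all 6 genes lay between -0.68 and -0.29. The 2 genes below 0 in every hybridisation were RPP2A and RPL12B.

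**Figure D4:**
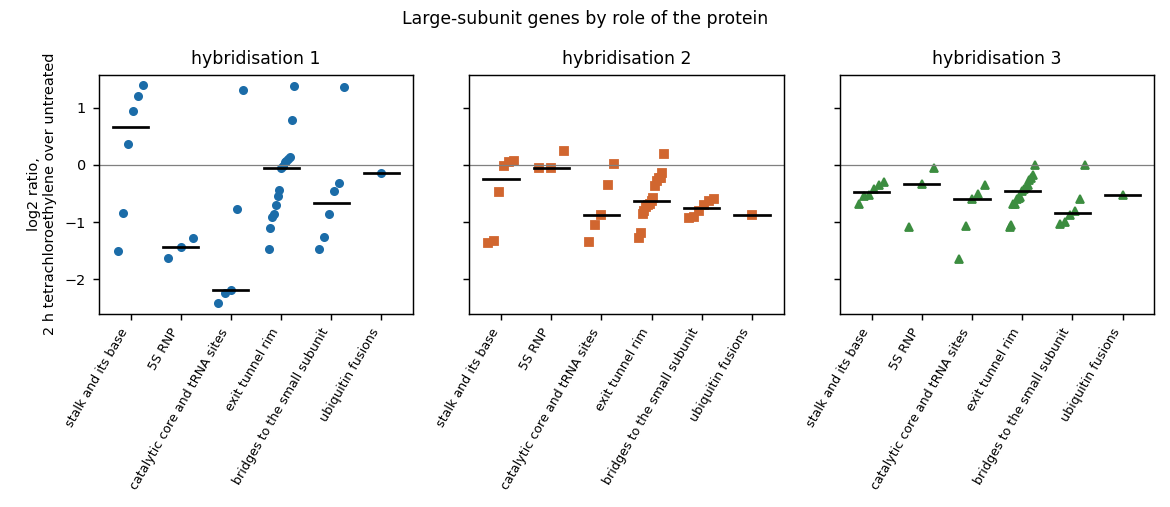
Log2 ratio of treated over untreated cells for large-subunit genes by the role of their protein, with a panel for each hybridisation, a point for each gene and a bar at each group's median. The stalk genes have a median of 0.66 in hybridisation 1. The list named catalytic core, which also holds the L4 genes, has -2.19. In hybridisation 3 the medians of all 6 groups lie between -0.83 and -0.33.

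Both copies were measured for 26 pairs, and the difference of their log2 ratios, copy A minus copy B, was taken within each array. Both copies fell in 3 pairs (RPL4, RPL15 and RPL24), only copy A was called in 4 (RPL7, RPL9, RPL14 and RPL42) and only copy B in 7 (RPL1, RPL16, RPL19, RPL20, RPL27, RPL31 and RPL35). Neither copy was called in the other 12. Whether copies differ was tested on the differences themselves, over the 50 pairs of genes in the table whose names differ by a final A or B. By limma, 0% of the 50 pairs passed an adjusted p of 0.05, and 3 of the 26 large-subunit pairs had an unadjusted p under 0.05. Among the 24 other pairs, COX5, RPS29, RPS1, RPS22 and RPS28 also had an unadjusted p under 0.05. A call for a single copy is thus not shown to set it apart from its partner.

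The 3 large-subunit pairs with an unadjusted p under 0.05 were RPL27, RPL16 and RPL20, each with copy B lower. For RPL27 the differences were 1.43, 1.52 and 0.43 in hybridisations 1, 2 and 3, with a mean of 1.13 ± 0.60 (95% interval 0.40 to 1.86, adjusted p = 0.164). For RPL16 they were 0.36, 1.70 and 0.94, with a mean of 1.00 ± 0.67 (95% interval 0.24 to 1.76). For RPL20 they were 1.03, 1.10 and 0.33, with a mean of 0.82 ± 0.42 (95% interval 0.15 to 1.49). Copy A was the higher in all 3 arrays in each of these pairs, and the adjusted p of RPL16 and RPL20 was also 0.164. RPL16A itself had -1.19, 0.27 and -0.07. Without hybridisation 1 the RPL16 difference was 1.32 and passed (adjusted p = 0.0154), the only large-subunit pair to do so.

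Next in size came the stalk pairs and RPL31. RPP2 differed by -1.21, -0.86 and 0.13, with copy A lower in the first 2 hybridisations (mean -0.65 ± 0.69). RPP1 differed by 0.45, 1.43 and -0.14 (mean 0.58 ± 0.79). RPL31 differed by 1.204, 0.35 and 0.12 (mean 0.56 ± 0.57), with copy B lower in all 3.

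The smallest mean differences were those of RPL17, RPL4 and RPL34. RPL17 differed by -0.87, 0.17 and 0.86, which averaged to 0.06 with a 95% interval of -0.79 to 0.90. RPL34 differed by 0.89, -0.86 and -0.52 (95% interval -1.04 to 0.71). In both, the copies changed places between arrays, so a mean near 0 does not show that they moved together. RPL4 differed by -0.06, 0.18 and -0.57 (95% interval -0.81 to 0.51), with both copies called.

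Over the 26 pairs the difference kept its sign in all 3 hybridisations in 13, with copy B lower in 9 and copy A lower in 4. RPL9, with differences of -0.45, -0.41 and -0.51, and RPL15, with 0.61, 0.60 and 0.41, were the most even of these. The median absolute mean difference within a pair was 0.40, beside 0.41 over the 2389 combinations of 2 genes for different large-subunit proteins. It was 0.35 over the 24 other pairs of the table, most of which are pairs for small-subunit proteins. Across the 26 pairs, Pearson's r between copy A and copy B was 0.67 in hybridisation 1, -0.19 in hybridisation 2 and 0.09 in hybridisation 3, as a description over pairs read on the same array. Near-identical copies can bind each other's spots on an array, and the spotted sequences were not used here, so a difference between copies may be understated and single copies are uncertain.

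**Figure D5:**
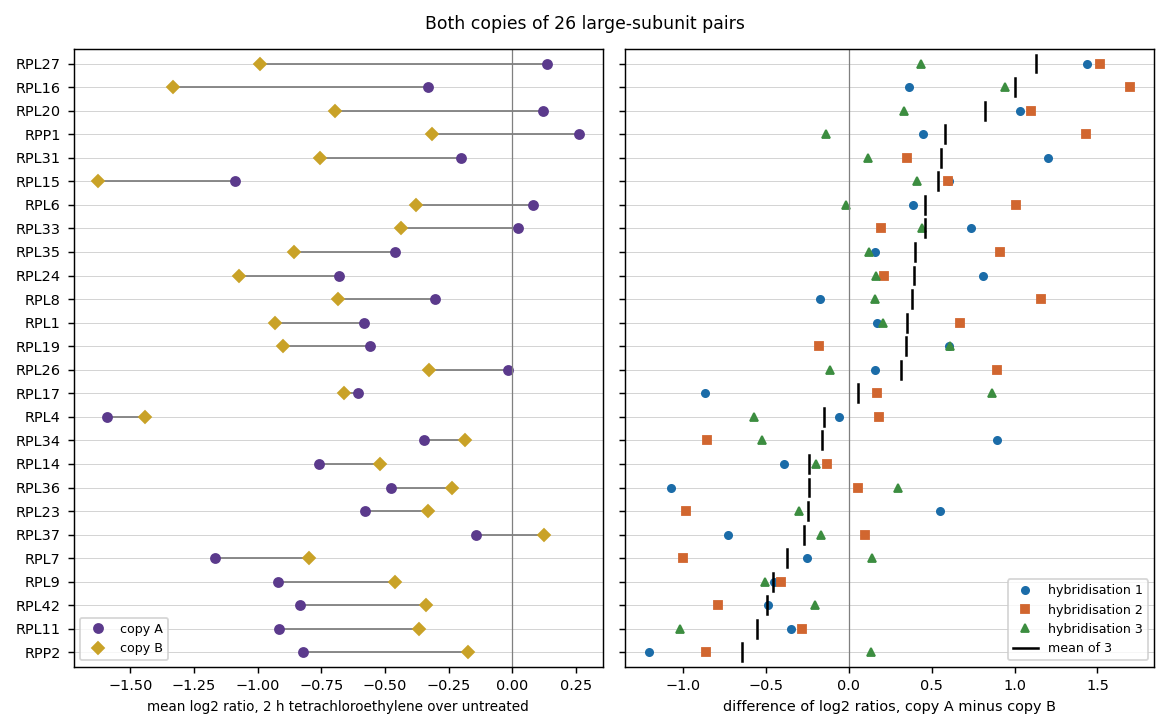
Left, mean log2 ratio of treated over untreated cells for copy A (circle) and copy B (diamond) of 26 large-subunit pairs. Right, copy A minus copy B in each of the 3 hybridisations with a bar at the mean; pairs are ordered by that mean, from RPL27 (1.13) to RPP2 (-0.65), and 13 of the 26 have all 3 points on the same side of 0.

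The copies whose partner was not analysed here, or lacked a hybridisation, were RPL2B, RPL12B, RPL13A, RPL18B, RPL21B, RPL22A, RPL40B and RPL41A. Of these RPL18B fell, with -1.11, -0.59 and -0.68 (mean -0.80 ± 0.28, adjusted p = 0.0335). RPL13A had 0.52, -0.41 and -0.71 and RPL22A had 0.07, -0.73 and -0.69, both above 0 in hybridisation 1 alone. RPL21B had 0.70, 0.08 and -0.61. The remaining genes that did not pass were both copies of RPL6, RPL8, RPL17, RPL23, RPL26, RPL33, RPL34, RPL36 and RPL37 and single copies of pairs named above.

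The dedicated carriers of large-subunit proteins and the late loading factors were lower as well. Of 14 measured of 15 listed, 10 fell and 0 rose, where 11.9% of all genes were called lower, and their median of means was -0.88 beside -0.47 for the 70 large-subunit genes. Without hybridisation 1, 2 or 3 the count that fell was 12, 8 and 0, where 22.4%, 7.35% and 0% of all genes were called lower. Against a minimum fold of 1.2 it was 6, where 5.31% of all genes were called lower. RRB1, which carries L3, had -2.08, -1.98 and -1.06 (mean -1.71 ± 0.56, adjusted p = 0.0107). SYO1, which carries L5 with L11, had -1.38, -1.07 and -1.23 (mean -1.23 ± 0.15, adjusted p = 0.0111). Both carriers passed where none of RPL3, RPL5, RPL11A and RPL11B did, and the difference between carrier and cargo was not tested.

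ACL4, which carries L4, had -0.95, -0.33 and -0.37 and did not pass (adjusted p = 0.0986), where both L4 genes fell. SQT1, which carries L10, fell (mean -0.68 ± 0.26, adjusted p = 0.0495), and BCP1, which carries L23, fell too (mean -0.82 ± 0.41, adjusted p = 0.0409). Both calls were lost without hybridisation 2 or 3 and against a minimum fold of 1.2, and that of SQT1 also with the low power scan alone, with scans within 0.5 of each other and after centring on each hybridisation's median. RPL23A had 0.35, -1.24 and -0.84 and RPL23B had -0.20, -0.26 and -0.54, neither of which passed.

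The export adaptor NMD3 (mean -1.86 ± 0.55), the GTPase LSG1 that helps to release it (mean -1.41 ± 0.25), the export factor ARX1 (mean -1.46 ± 0.51) and its partner ALB1 (mean -1.45 ± 0.57), REI1 (mean -0.66 ± 0.11, adjusted p = 0.0435) and the phosphatase YVH1 (mean -0.94 ± 0.27) also fell. Without hybridisation 3 the calls of all these genes were lost, where 0% of all genes were called lower. The call of REI1 was also lost without hybridisation 2, after either centring and against a minimum fold of 1.2, and that of YVH1 against that fold. YVH1 takes MRT4 off the subunit so that P0 can bind, and MRT4 had -1.25, -0.23 and -0.77 (adjusted p = 0.0651). TIF6 and SDO1 did not pass, with means of -0.48 ± 0.34 and 0.27 ± 0.23.

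Among regulators of ribosomal protein genes, HMO1, a protein bound at many of their promoters, fell with -0.92, -1.34 and -0.66 (mean -0.97 ± 0.34, adjusted p = 0.0212). The call of HMO1 was lost without hybridisation 2 or 3 and against a minimum fold of 1.2. RAP1, FHL1, IFH1, CRF1 and SFP1 did not pass, with means between -0.39 and 0.35. RAP1 (1.18, -0.33 and -0.50) and IFH1 (1.21, -0.18 and 0.00) were high in hybridisation 1 alone. Of 5 measured of 6 listed modifying enzymes, 0 fell or rose by limma, and RKM1 and RKM4, lysine methyltransferases of large-subunit proteins, were lower at an unadjusted p under 0.05.

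The 51 small-subunit genes of the same table included 16 that fell (31.4%) and 0 that rose, where 11.9% of all genes were called lower. Their medians were -0.20, -0.63 and -0.59 in hybridisations 1, 2 and 3. Without hybridisation 1, 2 or 3 the small-subunit count that fell was 37, 11 and 0. In these settings 22.4%, 7.35% and 0% of all genes were called lower. The difference between the subunits was not tested. Markers of other states of a yeast culture were also read as ratios, which give no level. Of 2 measured mating genes PRM1 fell (mean -1.28 ± 0.42) and FIG1 had -0.73 ± 0.38. Of 5 genes of meiosis and 4 of quiescence 0 passed by limma. In each list 1 gene was higher at an unadjusted p under 0.05, SPO11 (3.86, 0.57 and 0.66) and SNZ1 (0.15, 0.89 and 0.97). SPS1 and SPG1 were at 2.51 and 2.24 in hybridisation 1 and were not among these. The part of these markers in the large-subunit ratios was not tested.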

How the data were processed

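The deposited table held 6 columns of log2 ratios for 6912 features, a column for each of 2 scans of 3 hybridisations. Per the labels, the authors normalised spots with flag 0 by LOWESS. The labels state neither the base and direction of the ratio nor the spot software, and the highest value, 7.74, would be out of a scanner's range on a log10 scale. No intensities were used, so dim or saturated spots could not be told from others and the number of arrays limits the precision. The annotation gave 1 gene to 5513 features, several to 0 and none to 1399. Symbols were updated by gene ID through RefSeq's table of assembly R64, which matched 5508 features. Some genes that R64 names by the same pattern were not analysed here.

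Scans of a hybridisation were averaged (a lone scan was kept), then features of a gene. Means over 3 hybridisations were set against 0 in a two-sided intercept-only fit (lmFit and eBayes of limma 3.58.1, R 4.3.3) across all 5349 genes with a value in each, with Benjamini-Hochberg adjustment and a threshold of 0.05. Differences between copies were fitted likewise over 50 pairs. ± is SD over hybridisations and intervals are limma's 95%. The procedure was tested on simulated data with independent noise of equal spread in the 3 arrays. That does not cover arrays that differ in spread, as these did. Values in every hybridisation were given for the 10 lowest and 5 highest means, genes without A or B, stalk genes, and the 6 largest and 3 smallest pair differences, and other genes with such values were chosen after their values were seen. Members, roles and lists were chosen with earlier results of these data known. Alternatives left out a hybridisation or a scan, kept features read in both scans or scans within 0.5 of each other, centred arrays or blocks of 384 consecutive feature IDs, scaled or quantile-normalised the arrays, fitted 6 scans with hybridisation as a random block, or tested against a fold of 1.2.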

Additional observations from a re-analysis of the deposited data

How the results depend on the processing

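The median of the large-subunit genes stayed below 0 under all 12 alternatives run for it. It lay between -0.57 and -0.49 when a hybridisation was left out, and was -0.35 with the high power scan alone and -0.24 with features read in both scans, settings in which 5 of the 70 genes were measured. In both of these scan settings 0 genes fell by limma, with 1 lower at an unadjusted p under 0.05 in each and no count of all genes at that p. The count of genes that fell was 0 to 42 when a hybridisation was left out and 6 against a minimum fold of 1.2. In the other 7 settings it was 13 to 26, within 1.5 times the 19 given. The count of pairs whose copies differ was 0 to 1 when a hybridisation was left out and 0 by limma in every other setting, also when pairs with identical values were to be left out, of which there were none among the large-subunit pairs. None of the 19 genes turned its sign in any setting that measured it. Scaling between arrays and quantile normalisation kept all 19 and gave 24, as the fit of 6 scans kept all 19 and gave 26. In these 3 settings 15.3%, 15% and 17.5% of all genes were called lower, against 11.9% in the fit given above. Centring of feature blocks kept 11, the low power scan alone 14, centring on medians 16 and scans within 0.5 of each other 17. There the share of all genes tested that was called lower was 10.9%, 12.1%, 11% and 12.1%. Of genes outside the group, SPS1, a kinase of spore formation with a mean of 0.37 and no call, was at -0.71 without hybridisation 1 and called lower (adjusted p = 0.000624), and at 0.96 without hybridisation 3. Settings for genes outside the large subunit were added after seeing the data. With 3 arrays, the fit without a hybridisation rests on 2 values a gene. No dye swap, intensity or untreated culture at 2 h was used. No paired analysis was possible because the columns form a single group of log ratios, each taken between treated and untreated cells on the same array.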
